A study of Mus musculus with 4 samples.

Results

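S-epsilon (Sε) is the repetitive stretch of intronic DNA ahead of the constant gene for IgE, and the junctions described here are the deletional joins of the Sμ switch region to it. A junction counts as one of them when its prey coordinate, the first Sε base kept in the join, stands in the minus-strand list of Sε junctions of a library (chr12, mm9). There were 4368 such junctions among 18731 in all: 2487 of 9435 in Wildtype, 732 of 3220 in CtIP_AA, 713 of 2555 in CtIP_KO and 436 of 3521 in XRCC4_KO. The assay was high-throughput genome translocation sequencing (HTGTS), in which breaks in a bait, here Sμ, are read together with whatever DNA they were joined to. The cells were splenic B cells negative for CD43, cultured for 4 days with anti-CD40 (1 ng/mL) and IL-4 (20 ng/mL), from mice whose IgH and IgK loci were already assembled. Each genotype is 1 library: Wildtype is CD21Cre+ CtIP +/C XRCC4 +/C, CtIP_AA is CtIP T855A/T855A with no Cre or XRCC4 allele named, CtIP_KO is CD21Cre+ CtIP C/- XRCC4 +/C, and XRCC4_KO is CD21Cre+ CtIP +/- XRCC4 C/-. Thus XRCC4_KO also lacks 1 allele of CtIP. The Wildtype library carries Cre and a C allele of each gene, so recombined cells there would lose 1 allele of both, taking C as the allele Cre deletes. In the same way, recombined cells of CtIP_KO would lose 1 allele of XRCC4. CD21Cre expresses the recombinase in mature B cells, so a deletion depends on how many of the cultured cells recombined, which was not measured here. The strain label (BL6) and the growth protocol (129Sv) differ, and ages and numbers of mice are not given in the sources used here.

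Class switch recombination starts when the deaminase AID acts on cytosines of transcribed switch regions, preferably in the palindrome AGCT, and its lesions are processed into double-strand breaks. XRCC4 works with DNA ligase IV in the classical end-joining pathway, which seals ends with little or no shared sequence. CtIP promotes the resection of a broken end, which exposes sequence that alternative end joining can pair as microhomology (MH). The T855A change removes a phosphorylation site of CtIP needed for resection. IgH lies on the minus strand of chromosome 12, so a higher mm9 coordinate is upstream, nearer to Sμ, and a lower one is downstream, nearer to the IgE exons.

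With 1 library per genotype, every test below compares libraries by their junctions and not genotypes, and every interval (95%, Wilson for shares, exact for odds ratios) covers counting error only. Some reads kept a string of 6 bases ahead of the nested primer, and the same few strings recurred in all 4 libraries. They stood in 31.4% of the blunt Sε reads of Wildtype (199 of 633), 10.2% of CtIP_AA (18 of 176), 9.71% of CtIP_KO (20 of 206) and 35.2% of XRCC4_KO (32 of 91). In Wildtype 178 of the 199 had the same string. In XRCC4_KO that string had 12 of the 32, and the commonest string had 14. Over all deletional Sε reads the share was 11.2% in CtIP_KO (80 of 713) and 27.5% in XRCC4_KO (120 of 436). Among these the main Wildtype string was also the commonest in XRCC4_KO (43 of 120, next to 42 for another), and it had 16 of 80 in CtIP_KO. Whether such reads belong to the library they were listed in was not tested. Several results on CtIP_KO and XRCC4_KO are therefore given also without them. Few joins recurred whole, with the same bait end and prey end. Of 435 distinct joins in XRCC4_KO, 12 were also among the 709 of CtIP_KO (2.76% and 1.69%). Among the 620 blunt joins of Wildtype were 5 of the 91 of XRCC4_KO (5.49%), 4 of the 176 of CtIP_AA (2.27%) and 6 of the 205 of CtIP_KO (2.93%). The overlap that chance would give was not computed.

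The sequences around some of the coordinates where junctions recurred are given first. From here on, a break means the Sε end as joined, which need not be where the DNA was first cut. Printed are 8 of the 24 coordinates that had junctions in all 4 libraries. They are those among the fullest of a library, with ties broken by the lower coordinate. Each run holds 50 bases of the coding (minus) strand, 5′ to 3′, so the break lies in its middle, after base 25, and the bases to the right of it are kept in the join. Capitals mark AGCT. The letters come from the 20 reference bases deposited beside each junction, which gave 1 base for each of 4488 positions with 0 contradictions.
Site 114514526, 43 junctions, chr12:114514502-114514551: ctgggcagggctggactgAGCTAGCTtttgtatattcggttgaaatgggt
Site 114513256, 13 junctions, chr12:114513232-114513281: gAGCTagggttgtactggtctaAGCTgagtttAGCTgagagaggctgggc
Site 114514610, 12 junctions, chr12:114514586-114514635: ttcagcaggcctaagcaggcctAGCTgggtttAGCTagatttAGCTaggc
Site 114513805, 11 junctions, chr12:114513781-114513830: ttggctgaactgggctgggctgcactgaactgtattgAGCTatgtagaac
Site 114513845, 10 junctions, chr12:114513821-114513870: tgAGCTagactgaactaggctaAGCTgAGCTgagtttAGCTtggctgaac
Site 114514619, 10 junctions, chr12:114514595-114514644: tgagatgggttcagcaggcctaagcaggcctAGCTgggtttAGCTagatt
Site 114513187, 8 junctions, chr12:114513163-114513212: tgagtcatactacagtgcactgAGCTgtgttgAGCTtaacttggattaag
Site 114513343, 6 junctions, chr12:114513319-114513368: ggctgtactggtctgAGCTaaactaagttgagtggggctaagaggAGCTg
In 5 of the 8 the break fell inside an AGCT, between its C and its T. The share was lower, 8 of 22 (36.4%), over all the 10 fullest coordinates of Wildtype and the 5 fullest of each other library. At 114513805, 114513343 and 114514619 the nearest AGCT centre lay 14, 8 and 8 bp from the break.

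Deletional junctions filled about 3 kb. The central 95% of Wildtype junctions spanned chr12:114511918-114515051, 3134 bp with its midpoint at 114513484. The Wildtype quartiles were 114513296.5 and 114514386.5, 1090 bp apart, and the interquartile range was 1092.5 bp for CtIP_AA, 1083 bp for CtIP_KO and 1264 bp for XRCC4_KO. Outside this stretch single junctions reached down to 114507131, in XRCC4_KO, and up to 114516373, in Wildtype. Within it the density was highest at 2 places. In Wildtype the fullest 200 bp bin was 114513401 to 114513600 with 308 junctions (12.4%, 11.1 to 13.7), next to a bin of 253 (10.2%). A further rise of 252 junctions (10.1%, 9.01 to 11.4) lay about 1 kb upstream, at 114514401 to 114514600. The 4 bins between them held 7.60% to 8.52% each, and the intervals of 3 of these overlap that of the upstream rise, where 25 of the 252 junctions stood at the single coordinate 114514526. The 3 fullest bins together held 32.7% of Wildtype junctions.

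**Figure D1:**
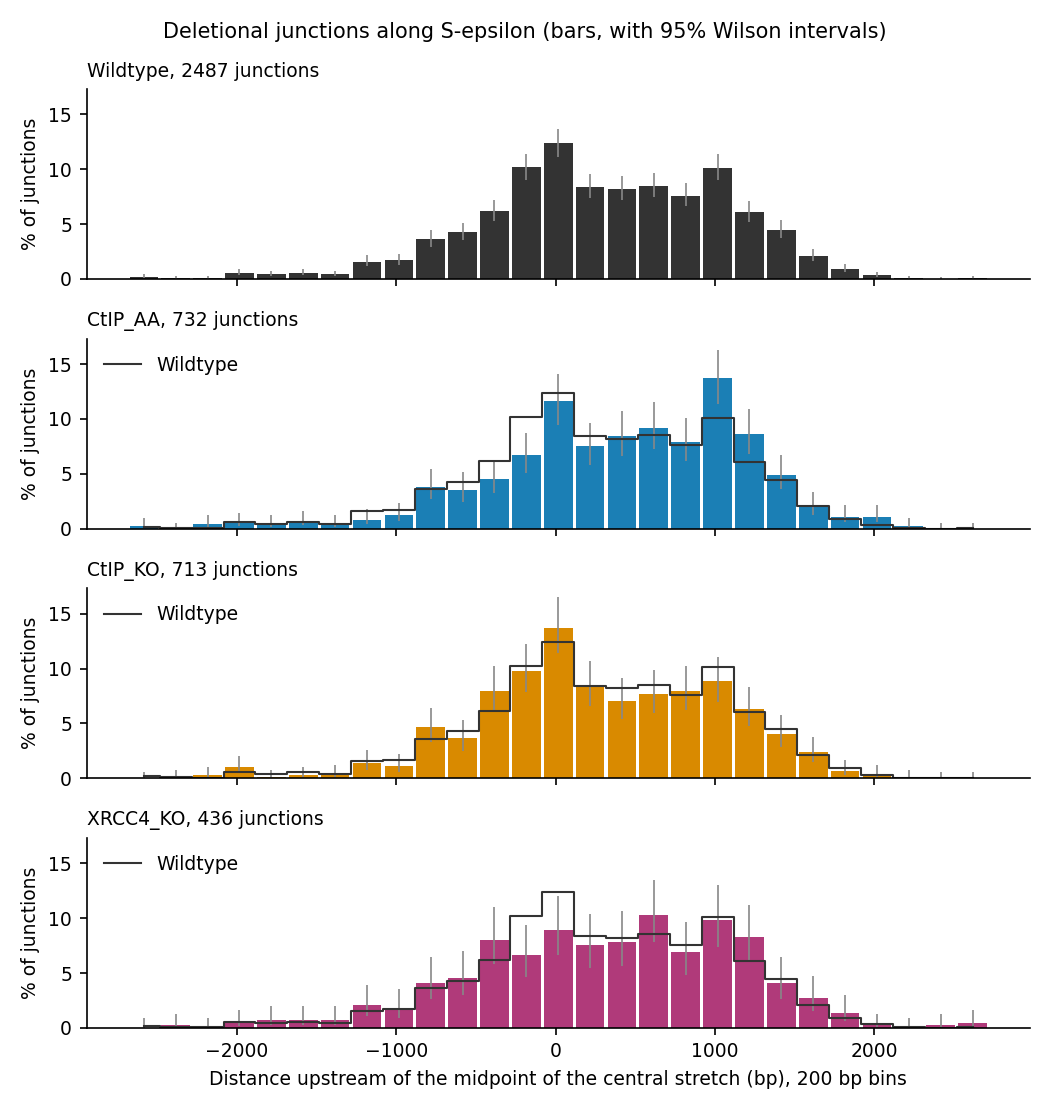
Share of each library's deletional junctions (y axis, %) in 200 bp bins against distance upstream of the midpoint of the central stretch (x axis, bp), with 95% Wilson intervals and the Wildtype outline over the mutant libraries. Every library has most junctions within about 1500 bp of the midpoint, with the fullest Wildtype bin (12.4%) near 0 and the fullest CtIP_AA bin (13.7%) about 1 kb upstream.

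The order of the bins varied among the libraries. CtIP_KO had the Wildtype order, with 98 junctions (13.7%) at 114513401 to 114513600, 70 (9.82%) in the bin downstream of it and 63 (8.84%) at 114514401 to 114514600. In CtIP_AA the upstream rise came first, with 100 junctions (13.7%, 11.4 to 16.3) at 114514401 to 114514600, then 85 (11.6%) at 114513401 to 114513600 and 67 (9.15%) at 114514001 to 114514200. In XRCC4_KO the profile was flatter, with 45 junctions (10.3%) at 114514001 to 114514200, 43 (9.86%) at 114514401 to 114514600 and 39 (8.94%) at 114513401 to 114513600. The intervals of these XRCC4_KO shares overlap each other. There were 19 bins with 20 or more junctions over the 4 libraries, and they held 96.6% to 98% of each library's junctions. None of the 19 differed from Wildtype in CtIP_AA (0%), CtIP_KO (0%) or XRCC4_KO (0%) after Benjamini-Hochberg adjustment of Fisher's exact test over all 57 comparisons. At an unadjusted p under 0.05 there were 4 bins in CtIP_AA, 0 in CtIP_KO and 2 in XRCC4_KO. The smallest adjusted p was 0.222, for 114513201 to 114513400 in CtIP_AA, where 49 junctions (6.69%) stood against 10.2% in Wildtype (odds ratio 0.634, 0.451 to 0.875). The same bin held 29 junctions in XRCC4_KO (6.65%, odds ratio 0.629, 0.407 to 0.942, exact adjusted p = 0.25).

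Over wider windows the CtIP_AA profile did differ from Wildtype. Upstream of the midpoint lay 72.1% of CtIP_AA junctions (528 of 732, 68.8 to 75.3) and 63.8% of Wildtype junctions (1587 of 2487, 61.9 to 65.7), an odds ratio of 1.47 (1.22 to 1.77, Fisher's exact adjusted p = 9.17e-05). In 500 bp bins, the stretch 114513001 to 114513500 held 16.5% of CtIP_AA against 22.5% of Wildtype junctions (odds ratio 0.682, exact adjusted p = 0.0123). The stretch 114514501 to 114515000 held 23.1% against 17.7% (odds ratio 1.40, exact adjusted p = 0.0171). With the border 500 bp lower the odds ratio fell to 1.17 (0.901 to 1.52, exact adjusted p = 0.392), and at that border a difference was not detectable. Upstream shares of 62.3% in CtIP_KO (444 of 713, odds ratio 0.936, 0.785 to 1.12) and 63.5% in XRCC4_KO (277 of 436, odds ratio 0.988, 0.796 to 1.23) did not pass the test (exact adjusted p = 0.68 and 0.914). The median coordinates were 114513778 in Wildtype (order-statistic interval 114513731 to 114513805), 114513979 in CtIP_AA (114513861 to 114514059), 114513710 in CtIP_KO and 114513849 in XRCC4_KO.

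A single coordinate stood apart from all others. At 114514526, 1042 bp upstream of the midpoint, 25 Wildtype junctions ended (1.01%, 0.682 to 1.48), as did 11 of CtIP_AA (1.50%, 0.841 to 2.67), 3 of CtIP_KO (0.421%, 0.143 to 1.23) and 4 of XRCC4_KO (0.917%, 0.357 to 2.33). It ranked first in Wildtype, CtIP_AA and XRCC4_KO. Its 43 junctions were 3.31 times the 13 of the next coordinate, and no coordinate within 60 bp of it had more than 9, with a median of 2. It lies in the upstream density maximum, within the tandem AGCTAGCT printed above, where the break fell just ahead of the final T.

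**Figure D2:**
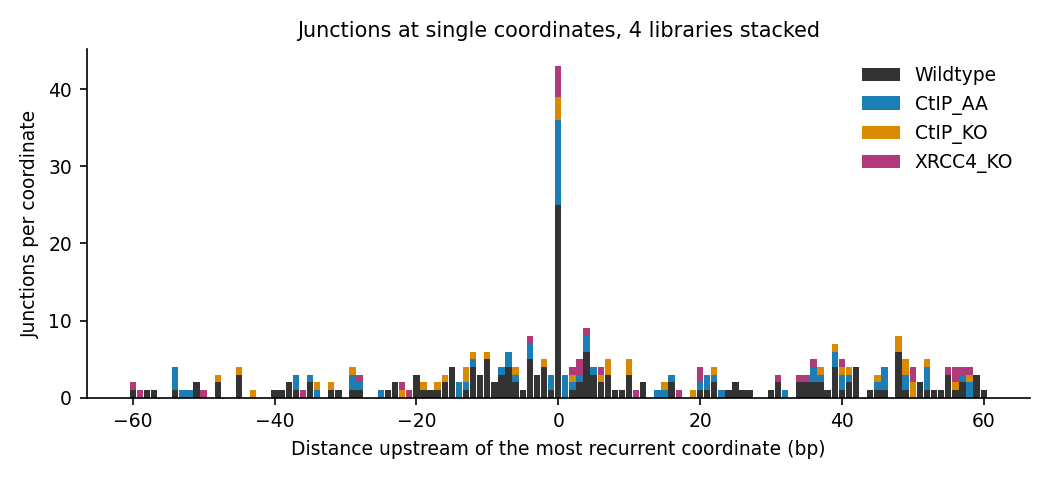
Junctions per single coordinate (y axis, stacked by library) against distance upstream of coordinate 114514526 (x axis, bp). The bar at 0 reaches 43 junctions, 25 of them from Wildtype, while no neighbour within 60 bp exceeds 9.

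As the only coordinate with 20 or more junctions it was the only one tested, and it differed from Wildtype in none of the libraries (0% called in CtIP_AA, in CtIP_KO and in XRCC4_KO, none at an unadjusted p under 0.05). The odds ratios were 1.50 in CtIP_AA (0.664 to 3.18, Fisher's exact adjusted p = 0.473), 0.416 in CtIP_KO (0.0802 to 1.37, exact adjusted p = 0.473) and 0.912 in XRCC4_KO (0.230 to 2.66, exact adjusted p = 1). All 3 intervals are wide enough to hold a difference of more than 2-fold. The 13 junctions there with a listed Sμ end were not copies of 1 join, and the Sμ ends of the rest were not listed. In the 7 joins listed for CtIP_KO and XRCC4_KO and the 6 blunt joins listed for Wildtype and CtIP_AA, the Sμ end took 12 different positions, and the only position seen more than once, 114664834, had a blunt join in Wildtype and an insertion of 11 bp in XRCC4_KO. Only 3 of the 25 Wildtype junctions were blunt, as were 3 of 11 in CtIP_AA, 0 of 3 in CtIP_KO and 1 of 4 in XRCC4_KO. All 3 in CtIP_KO carried an insertion of 3 bp, and the other 3 in XRCC4_KO carried insertions of 2, 7 and 11 bp, so none of these 7 had microhomology. Of the joins, 6 are shown as read, Sμ and any inserted bases in lower case and the Sε part in capitals.
Wildtype, blunt, Sμ end at 114664834: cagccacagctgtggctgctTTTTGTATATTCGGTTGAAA
CtIP_AA, blunt, Sμ end at 114664836: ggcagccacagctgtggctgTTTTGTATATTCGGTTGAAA
CtIP_KO, 3 bp inserted, Sμ end at 114664844: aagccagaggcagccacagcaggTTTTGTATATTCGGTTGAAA
CtIP_KO, 3 bp inserted, Sμ end at 114664808: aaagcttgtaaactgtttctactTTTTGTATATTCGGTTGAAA
XRCC4_KO, blunt, Sμ end at 114664819: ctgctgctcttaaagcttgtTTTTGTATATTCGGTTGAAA
XRCC4_KO, 2 bp inserted, Sμ end at 114664830: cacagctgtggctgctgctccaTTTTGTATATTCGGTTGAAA
The same Sε base begins the kept part in each, while the Sμ end moves.

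The remaining recurrent coordinates were used far less. In Wildtype, 114513256, 114513800 and 114513805 had 8 junctions each (0.322%), 114513345, 114513571 and 114514387 had 7 each, and 7 coordinates had 6 each, the lowest of them being 114512619, 114513775 and 114513845. Of the 9 named, 114514387 was seen in Wildtype only, and with 0 of 732, 0 of 713 and 0 of 436 junctions the mutant libraries allow shares of up to 0.410%, 0.421% and 0.688%, all above the 0.281% of Wildtype. In CtIP_AA the next coordinates after 114514526 were 114514610 with 4 junctions and 19 with 3 each, of which the lowest coordinates were 114513147, 114513256 and 114513343. In CtIP_KO 114513187 led with 5 junctions (0.701%, 0.300 to 1.63) against 1 in each other library, followed by 4 each at 114513202, 114513605, 114514322 and 114514619. In XRCC4_KO 5 coordinates had 3 each, among them 114513456, 114514044, 114514086 and 114514178. The intervals of such small shares span at least 3-fold, so the order of coordinates below the first cannot be told apart between libraries. Among the 12 coordinates with 10 or more junctions over the 4 libraries none was called, and the smallest unadjusted p was 0.0249, for 114514619 with 4 junctions in CtIP_KO and 2 in Wildtype (exact adjusted p = 0.896).

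Junction ends clustered at 1 place within AGCT. Letters were known for 2979 of the 3134 positions of the central stretch, and 92 AGCT motifs were found in it, 1 per 34.1 bp. AGCT reads the same on both strands. The coordinate that leaves the T on the kept side (AGC|T) is 2.94% of the stretch, and it held 402 of the 4124 junctions there, 9.75% (8.88 to 10.7). Breaks placed evenly within each 200 bp bin, keeping the number of junctions per bin, would give 3.73%. The AGC|T coordinates had 4.37 junctions each over the 4 libraries, against 1.22 for the other 3042 coordinates. That contrast does not allow for bin density, and against even placement within bins the AGC|T share was 2.61 times as high. At least 1 junction stood at 83 of the 92 (90.2%) and at 1772 of the other 3042 (58.3%). The neighbouring steps through the motif were lower: 2.96% at AG|CT, 4.15% at A|GCT, 4.73% just ahead of the A and 3.61% just after the T.

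**Figure D3:**
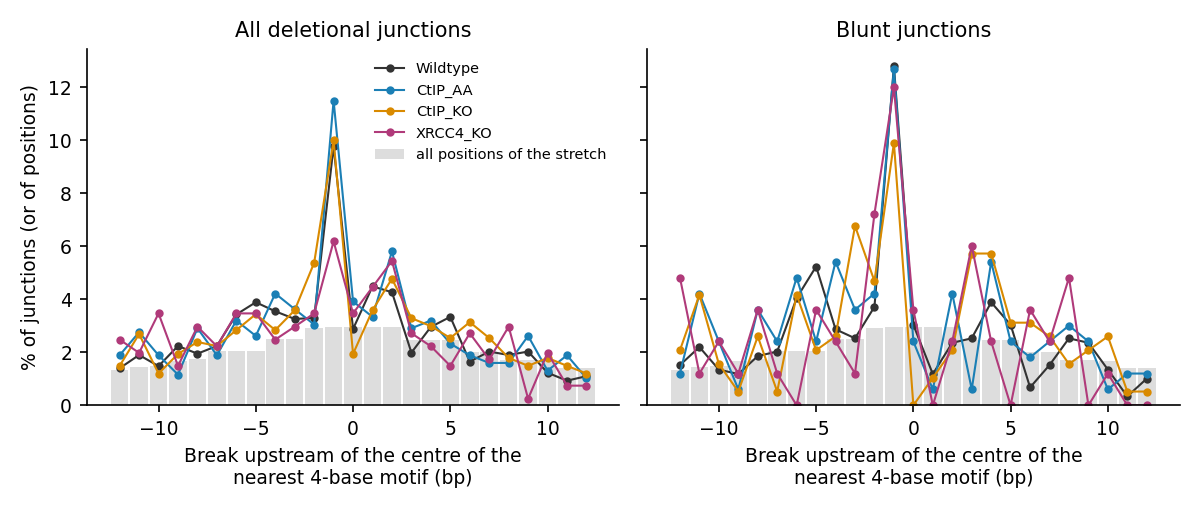
Share of junctions (y axis, %) by the distance of the break upstream of the centre of the nearest AGCT (x axis, bp), for all deletional junctions (left) and blunt ones (right), with grey bars for all positions of the central stretch. The peak at -1 bp, the AGC|T break, is 6.19% to 11.5% of all and 9.90% to 12.8% of blunt junctions, where 2.94% of positions lie.

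The AGC|T share was 9.78% in Wildtype (231 of 2363, 8.64 to 11.0), 11.5% in CtIP_AA (79 of 688, 9.31 to 14.1), 10.0% in CtIP_KO (67 of 669, 7.96 to 12.5) and 6.19% in XRCC4_KO (25 of 404, 4.23 to 8.98). Evenly placed breaks would give 3.65% to 3.76%, below these 4 intervals. The XRCC4_KO share was the lowest of the 4 over all joins, and was 5.82% (17 of 292, 3.67 to 9.12) without reads keeping the 6 bases. Among blunt joins, where no shared base blurs the end, the shares were 12.8% in Wildtype (76 of 592), 12.7% in CtIP_AA (21 of 166), 9.90% in CtIP_KO (19 of 192) and 12.0% in XRCC4_KO (10 of 83, 6.68 to 20.8). These 4 intervals overlap. Part of the peak came from coordinate 114514526. Without it the shares were 8.81%, 10.0%, 9.61% and 5.25% in the same order, and the XRCC4_KO interval (3.46 to 7.89) then included its value for even placement, 3.65%. Counting each coordinate once in each library gave 5.31%, 7.86%, 8.01% and 5.71%, and counting so limits each library to the same 92 coordinates, of which Wildtype already used 74. At lower cut-offs fewer of the recurrent coordinates were AGC|T breaks: 36 of 153 with 5 or more junctions (23.5%) and 12 of 28 with 8 or more (42.9%). Of the 12 coordinates with 10 or more junctions, 7 were AGC|T breaks (58.3%). The base ahead of AGCT at those 7 was T at 114514526 and 114514610, A at 114513256 and 114513845, C at 114514332 and G at 114513452 and 114513467.

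The excess over even placement was also measured in a wider window. An AGCT lay within 5 bp of 49.1% of Wildtype breaks (1153 of 2348, 47.1 to 51.1), 51.8% in CtIP_AA, 50.4% in CtIP_KO and 44.6% in XRCC4_KO (180 of 404, 39.8 to 49.4), against 35.7% of all positions and 41.2%, 41.3%, 41.4% and 40.3% for evenly placed breaks. Only in XRCC4_KO did the interval include the value for even placement, and there the surplus of 4.25 percentage points fell to 1.92 without reads keeping the 6 bases (42.5% of 292 against 40.5%). The 5-base motif GAGCT (both strands, overlapping AGCT) lay within 5 bp of 40.2% of Wildtype breaks, 29.9% of positions and 34.6% of evenly placed breaks. GGGCT, a repeat unit without AGCT, lay within 5 bp of 17.3% of Wildtype breaks (15.8 to 18.8), 20.3% of positions and 21.8% of evenly placed breaks. The share was 19.6% in CtIP_AA, 16.6% in CtIP_KO and 17.8% in XRCC4_KO (14.4 to 21.9), against 22.9%, 21.2% and 21.8% for even placement. The XRCC4_KO interval included even placement, as did that of Wildtype blunt joins (18.6%, 15.7 to 21.9, against 21.3%). AGCT was also unevenly spread: the 200 bp bins from 114513001 to 114515000 held 4 to 11 of them each, and the tested bins outside held 1 to 4. All 200 letters were known in each of the former bins, but 118 to 200 in the latter, where some AGCT may be missed. A match says where letters lie and nothing about which factor acted there.

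Wildtype, the library with the most junctions, also repeated coordinates most, and at equal depth the libraries were close. Wildtype used 1506 coordinates for its 2487 junctions, 571 of them more than once, and 62.4% of its junctions (60.5 to 64.3) sat on a repeated coordinate. The share was 31.4% in CtIP_AA (602 coordinates), 34.2% in CtIP_KO (579) and 14.9% in XRCC4_KO (400). Drawn down to 436 junctions, the depth of XRCC4_KO, Wildtype would show 388 distinct coordinates, CtIP_AA 385 and CtIP_KO 382, against the 400 of XRCC4_KO. In Sγ1, the other target of anti-CD40 and IL-4, the same depth gave 399, 387, 395 and 390 coordinates, and in Sμ 364, 352, 365 and 365. Sε lay between the other regions in all but XRCC4_KO, where it had the most distinct coordinates. With coordinates merged to 3 bp it lay between them in every library, at 333, 326, 329 and 338 against 366, 354, 361 and 366 in Sγ1 and 305, 294, 307 and 320 in Sμ. No test was made of these counts.

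**Figure D4:**
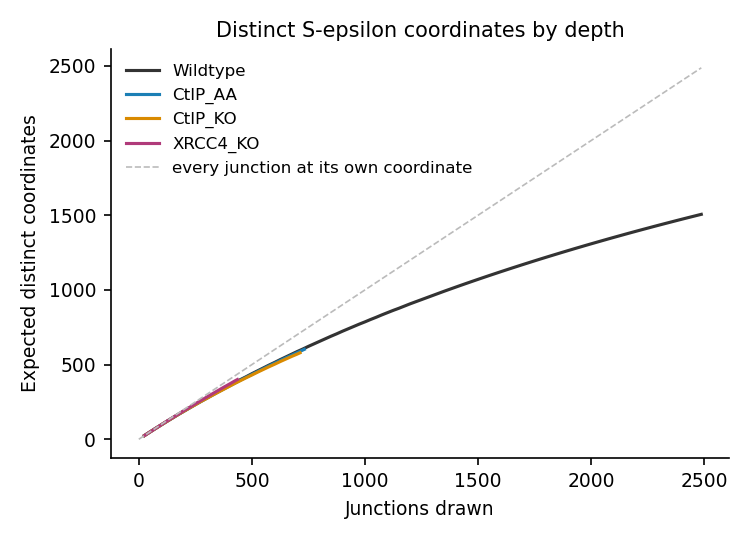
Expected number of distinct Sε coordinates (y axis) for a given number of junctions drawn without replacement (x axis), per library, with a dashed line for junctions that never repeat. The 4 curves lie close together at 436 junctions, with 382 to 400 distinct coordinates, and Wildtype reaches 1506 at its full 2487.

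Where both ends were listed, most repeats of a prey coordinate were separate joins. In CtIP_KO 106 of the 110 repeated coordinates, and in XRCC4_KO 28 of 29, had a different Sμ end in every junction. Among blunt joins, the only ones listed for Wildtype and CtIP_AA, 69 of 81 repeated coordinates in Wildtype and 15 of 15 in CtIP_AA had a different Sμ end in every junction, and 13 of 633 and 0 of 176 joins repeated both ends. Of 2066 coordinates used in any library, 1272 appeared in 1 library, 591 in 2, 179 in 3 and 24 in all 4. Those 24 held 3.74% of Wildtype, 6.83% of CtIP_AA, 5.33% of CtIP_KO and 6.42% of XRCC4_KO junctions. Wildtype shared 366 coordinates with CtIP_AA (60.8% of CtIP_AA's and 24.3% of its own), 346 with CtIP_KO (59.8% and 23.0%) and 218 with XRCC4_KO (54.5% and 14.5%). In the central stretch Wildtype by itself had a junction at 74 of the 92 AGC|T coordinates (80.4%) and at 1319 of the other 3042 (43.4%). The sharing of coordinates that chance would give was not computed. On the Sμ side, the bait of blunt Sε joins reached a median of 64 bp from its common start in Wildtype (quartiles 49 and 79), and medians of 65, 62 and 59 bp in CtIP_AA, CtIP_KO and XRCC4_KO.

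At the joins, microhomology was the commonest structure in each library, and XRCC4_KO had most of it. Wildtype had 48.8% joins with microhomology (1214 of 2487, 46.9 to 50.8), 25.5% blunt (634) and 25.7% with inserted bases (639). CtIP_AA had 46.7%, 24.3% and 29.0% (342, 178 and 212 of 732), and CtIP_KO 45.7%, 28.9% and 25.4% (326, 206 and 181 of 713). XRCC4_KO had 58.9% microhomology (257 of 436, 54.3 to 63.5), 20.9% blunt (91) and 20.2% insertions (88). Over the 9 comparisons with Wildtype 1 passed, the higher microhomology share of XRCC4_KO (odds ratio 1.51, 1.22 to 1.86, Fisher's exact adjusted p = 0.000872). Its blunt share (odds ratio 0.771, 0.595 to 0.992, exact adjusted p = 0.123) and insertion share (odds ratio 0.731, 0.562 to 0.944, exact adjusted p = 0.0621) did not pass. No share of CtIP_AA or CtIP_KO passed (exact adjusted p from 0.155 to 0.884), with odds ratios between 0.883 and 1.19.

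**Figure D5:**
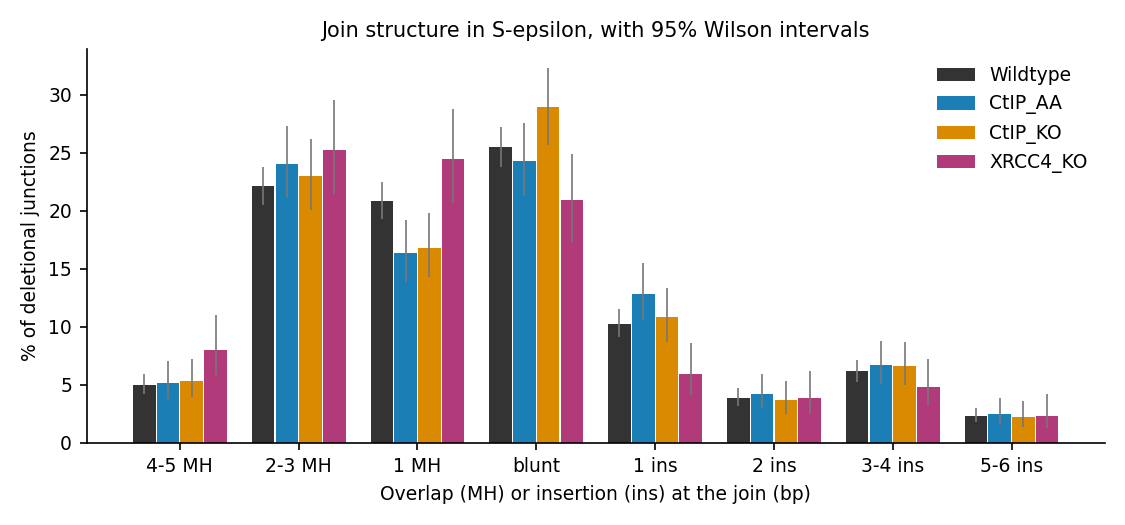
Share of deletional Sε junctions (y axis, %) by the overlap (MH) or insertion (ins) at the join in the deposited length bins (x axis, bp), with 95% Wilson intervals. Bins of 6 bp or more of microhomology and of 7 bp or more of insertion are not drawn. XRCC4_KO has the most 1 bp overlaps (24.5%) and the fewest 1 bp insertions (5.96%).

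The join classes of reads with the 6 bases were set beside those of the other reads of their library, with no test. In XRCC4_KO they were 26.7% blunt (32 of 120), 59.2% microhomology and 14.2% insertion, and the other 316 reads were 18.7% blunt, 58.9% microhomology and 22.5% insertion. In CtIP_KO they were 25% blunt (20 of 80), 61.2% microhomology and 13.8% insertion, and the other 633 were 29.4%, 43.8% and 26.9%. Without these reads, set against all Wildtype reads over 6 comparisons, the blunt share of XRCC4_KO passed the test (odds ratio 0.671, 0.490 to 0.908, exact adjusted p = 0.0252), its microhomology share kept its odds ratio at 1.50 (exact adjusted p = 0.00487), and the microhomology share of CtIP_KO passed in the other direction (odds ratio 0.816, 0.682 to 0.976, exact adjusted p = 0.0463). The insertion odds ratio of XRCC4_KO moved from 0.731 to 0.838 (0.625 to 1.11, Fisher's exact adjusted p = 0.292). The Wildtype joins with microhomology or insertions could not be trimmed in the same way.

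Overlaps were short. Single-base overlaps made up 20.8% of all Wildtype joins (518), 16.4% in CtIP_AA (120), 16.8% in CtIP_KO (120) and 24.5% in XRCC4_KO (107). Overlaps of 4 or more bp were 12.0% of microhomology joins in Wildtype (146 of 1214), 13.5% in CtIP_AA (46 of 342), 12.9% in CtIP_KO (42 of 326) and 15.6% in XRCC4_KO (40 of 257). None of the 3 mutant libraries differed from Wildtype (odds ratios 1.14, 1.08 and 1.35, Fisher's exact adjusted p = 0.703, 0.703 and 0.366), and the XRCC4_KO interval of 0.898 to 1.99 leaves room for a 2-fold difference. Taken over all deletional junctions, the XRCC4_KO odds ratio rose to 1.62 (1.09 to 2.35, exact adjusted p = 0.0418). At 2 or more bp CtIP_AA had 64.9% against 57.3% in Wildtype (odds ratio 1.38, 1.07 to 1.78, exact adjusted p = 0.0383). Overlaps of 6 or more bp were rare: Wildtype had 22, CtIP_AA 8, CtIP_KO 4 and XRCC4_KO 5.

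The overlapping bases could be read for CtIP_KO and XRCC4_KO, whose Sε joins were listed in full. The mean length of overlaps up to 15 bp was 2.13 ± 1.17 bp (SD over 325 joins) in CtIP_KO and 2.17 ± 1.44 bp (257 joins) in XRCC4_KO. At 4 bp, GCTG was the overlap in 12 of 24 CtIP_KO joins and 9 of 25 XRCC4_KO joins, and AGCT in 4 of 24 and 4 of 25. At 3 bp, GCT led in CtIP_KO (12 of 60) and CTG in XRCC4_KO (6 of 39). At 1 bp, G was the shared base in 39.2% of CtIP_KO (47 of 120) and 42.1% of XRCC4_KO joins (45 of 107). Sμ and Sε are both built of related short repeats, and the overlaps that chance would give were not computed.

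Insertion joins were also split by length. Insertions of 2 or more bp were 60.3% of insertion joins in Wildtype (385 of 639), 55.7% in CtIP_AA (118 of 212), 57.5% in CtIP_KO (104 of 181) and 70.5% in XRCC4_KO (62 of 88). The odds ratios of 0.828, 0.891 and 1.57 (0.95 to 2.66) did not pass the test (Fisher's exact adjusted p = 0.389, 0.548 and 0.238). Single-base insertions took 10.2% of all Wildtype joins (254), 12.8% in CtIP_AA (94), 10.8% in CtIP_KO (77) and 5.96% in XRCC4_KO (26 of 436, 4.10 to 8.59). CtIP_KO had a median insertion of 2 bp and XRCC4_KO of 3 bp. Of the 615 bases inserted in CtIP_KO 40.5% were G or C (36.7 to 44.4), and of the 336 in XRCC4_KO 45.2% (40 to 50.6).

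Joins to Sε differed from joins to Sγ1 mainly in XRCC4_KO. There, 58.9% of Sε and 69.2% of Sγ1 joins (983 of 1420) had microhomology (odds ratio 0.638, 0.509 to 0.802, Fisher's exact adjusted p = 0.000759), and 20.9% and 13.4% were blunt (odds ratio 1.71, 1.28 to 2.27, exact adjusted p = 0.00139). Overlaps of 4 or more bp were 15.6% of microhomology joins in Sε and 34.1% in Sγ1 (335 of 983, odds ratio 0.357, 0.242 to 0.516, exact adjusted p = 4.93e-08), while 1 bp overlaps were 24.5% of all joins in Sε and 14.4% in Sγ1 (odds ratio 1.94, exact adjusted p = 1.96e-05). In Wildtype the long overlaps were also rarer in Sε, 12.0% against 15.3% (291 of 1896, odds ratio 0.754, 0.605 to 0.937, exact adjusted p = 0.0458), and no other class passed. In CtIP_AA and CtIP_KO none of the 6 classes passed (exact adjusted p from 0.0703 to 1), 1 of 6 in CtIP_AA and 2 of 6 in CtIP_KO being under 0.05 unadjusted.

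The change from Wildtype to XRCC4_KO was itself smaller in Sε for 3 of the 4 classes compared, while for insertions the difference did not pass (ratio 1.21, 0.899 to 1.62, Zelen's exact test, adjusted p = 0.628). The ratio of the Sε to the Sγ1 odds ratio was 0.473 for long overlaps (0.311 to 0.720, 1.35 in Sε and 2.85 in Sγ1, Zelen's exact adjusted p = 0.00574). It was 0.701 for microhomology (0.549 to 0.895, exact adjusted p = 0.0276) and 1.49 for blunt joins (1.11 to 2.02, exact adjusted p = 0.0423), with the adjustment over 12 comparisons. No such ratio passed in CtIP_AA or CtIP_KO. The Sγ1 reads of XRCC4_KO and Wildtype that keep the 6 bases were not separated here, and the part of such reads in this difference was not tested.

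The share of blunt joins was compared along Sε. Blunt joins were 25.1% upstream and 26.1% downstream of the midpoint in Wildtype (398 of 1587 and 235 of 900), 24.2% and 23.5% in CtIP_AA, 28.2% and 30.1% in CtIP_KO and 20.2% and 22.0% in XRCC4_KO. The odds ratios of 0.947, 1.04, 0.910 and 0.898 did not pass the test (Fisher's exact adjusted p = 0.923 each), and the Wildtype interval of 0.783 to 1.15 bounds the difference in the largest library. Microhomology joins were 45.7% in both parts in CtIP_KO (203 of 444 and 123 of 269), and 58.5% upstream and 59.7% downstream in XRCC4_KO (162 of 277 and 95 of 159). Overlaps of 4 or more bp were 6.76% of joins upstream and 4.46% downstream in CtIP_KO (30 of 444 and 12 of 269), and 9.03% and 9.43% in XRCC4_KO (25 of 277 and 15 of 159). The microhomology and long-overlap shares by place were not tested.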

How the data were processed

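HTGTS junctions from 4 libraries of activated mouse B cells, 1 per genotype, were analysed, with groups taken from the sample titles. The submitters' processing notes name Bowtie2 and the build mm9; the steps that call and collapse junctions are not stated there. Linear amplification from Sμ, nested PCR and AflII digestion against germ-line Sμ preceded MiSeq sequencing, per the labels' protocols. The deposited position lists hold coordinates, 1 per junction, and the deposited summaries hold junction counts by overlap or insertion length in bins of the authors' making; both gave the same totals in every library. In the 2 libraries with a full Sε junction table (CtIP_KO and XRCC4_KO) the bins were checked against the reads: bin 2 of microhomology holds 2 and 3 bp, and bin 4 of insertions 3 and 4 bp. Insertions over 30 bp were listed elsewhere and not used here. Blunt joins were listed for all libraries, 633 of 634 in Wildtype and 176 of 178 in CtIP_AA with a position.

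Shares carry 95% Wilson intervals. Libraries were compared with two-sided Fisher's exact tests and conditional odds ratios with exact limits, with Benjamini-Hochberg adjustment within each kind of result and a threshold of 0.05. Differences between Sε and Sγ1 odds ratios used Zelen's exact test, with limits from the standard error of the log ratio. Position quantiles carry order-statistic intervals and no p. Distinct coordinates at equal depth are exact hypergeometric expectations. Bins were 200 bp wide with a minimum of 20 junctions over the 4 libraries, and single coordinates had the same minimum. Named coordinates are the 10 fullest of Wildtype and the 5 fullest of each other library, ties broken by the lower coordinate; this left unnamed 4 coordinates tied with the last named in Wildtype, 16 in CtIP_AA and 1 in XRCC4_KO. Sequence came from the 20 reference bases deposited beside each junction, since no mm9 genome was used. Python 3.11.15, scipy 1.17.1 and pandas 2.3.3 were used. The coordinates, lists and classes were chosen with earlier results of these data known, and the Sγ1 comparison and the trimming of reads with 6 extra bases after seeing them.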

Additional observations from a re-analysis of the deposited data

How the results depend on the processing

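Of 123 values recomputed, 100 were classed as unchanged. They kept their direction and their side of the threshold or, for values with no test, moved by less than their counting error. The 100 also include counts of called bins or coordinates that stayed at 0, which have no direction to keep. The upstream surplus of CtIP_AA held with the border 500 bp higher, each coordinate counted once, the central stretch alone or 114514526 left out (odds ratios 1.41 to 1.52), and with the border 500 bp lower it was 1.17 and no longer passed. It could not be recomputed without reads keeping the 6 bases, which stood in 10.2% of CtIP_AA and 31.4% of Wildtype blunt reads. The CtIP_KO upstream odds ratio turned to 1.01 with coordinates counted once, and that of XRCC4_KO to 1.04 with coordinates counted once, 1.20 with the border 500 bp higher and 1.05 without reads keeping the 6 bases, none past the threshold. In 500 bp bins 2 bins differed in CtIP_AA, where 200 bp bins gave 0. Bins of 3 bp raised the share of junctions at a repeated place to 87.4% (Wildtype), 59.7% (CtIP_AA), 56.1% (CtIP_KO) and 39.7% (XRCC4_KO). For join classes, reads keeping the 6 bases were left out of the mutant library only, and the rest was set against all Wildtype reads. The blunt odds ratio of XRCC4_KO (0.671) and the microhomology odds ratio of CtIP_KO (0.816) then passed the test, and the CtIP_KO insertion odds ratio turned to 1.06. The XRCC4_KO insertion odds ratio moved from 0.731 to 0.838 without such reads and passed in neither case. How far these moves come from trimming the mutant library alone was not tested. Blunt against microhomology joins alone gave 0.678 in XRCC4_KO, which passed. Overlaps of 2 or more bp passed in CtIP_AA (1.38), overlaps of 4 or more bp over all junctions passed in XRCC4_KO (1.62), and the CtIP_KO odds ratio for 6 or more bp turned to 0.673. Over all junctions, insertions of 2 or more bp turned to 1.05 in CtIP_AA and 0.905 in XRCC4_KO. Blunt joins upstream against downstream turned to 0.911 in CtIP_AA and 1.88 in XRCC4_KO with the border 500 bp lower, neither past the threshold. The surplus of Wildtype breaks near AGCT over even placement was 5.35 percentage points within 2 bp and 3.10 with coordinates counted once, against 7.87 within 5 bp. In XRCC4_KO it fell from 4.25 to 2.79 with coordinates counted once and to 1.92 without reads keeping the 6 bases, moves within counting error. The cause of these changes was not tested. Insertions of 4 or more bp were not run, since the deposited bins join 3 and 4 bp. No paired analysis was possible because each genotype has 1 library. Depth limits what can be said of single coordinates: a count of 0 allows a share of up to 0.121% in Wildtype and 0.688% in XRCC4_KO.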
